A study of Mus musculus with 4 samples.

Results

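The region analysed here is the gene-bearing stretch that lies centromeric to *Lef1* on mouse chromosome 3. It holds *Etnppl*, *Ostc* and *Rpl34* together with the gaps that separate them, and it runs from the first base after *Col25a1* to the *Rpl34* start site (chr3:130599878-130730398, mm10/GRCm38, 130521 bp). Its members were chosen by position alone, as the restriction fragments whose midpoint falls in the stretch. They numbered 124 of the 137330 scored fragments of chromosome 3 and of 2350945 in the whole genome. Contacts were measured by 4C-Seq in 4 libraries, each from freshly isolated cells of OF1 mice. The whisker pad libraries came from pooled whole embryonic whisker pads, labelled E12.5 (120 were collected, and the methods also name a later stage), and the kidney libraries came from whole adult kidney, which served the study as a negative control for *Lef1*. Each tissue was examined once from the *Lef1* promoter and once from Leaf, an intergenic element between *Rpl34* and *Lef1*. Tissue and developmental stage differ together between the groups, both tissues are mixtures of cell types, and with 1 library per tissue and viewpoint no difference given here has a replicate check or a test.

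In 4C-Seq, crosslinked chromatin is cut and religated, and the fragments joined to a chosen viewpoint are sequenced, so that a high score marks DNA often found near it. Contacts of a promoter usually decline with distance and are most frequent within its own topologically associating domain, beyond whose border they become rarer. *Etnppl* encodes ethanolamine-phosphate phospho-lyase, an enzyme that breaks down phosphoethanolamine. *Ostc* encodes a subunit of the oligosaccharyltransferase complex, which attaches glycans to nascent proteins in the endoplasmic reticulum. *Rpl34* encodes a protein of the large ribosomal subunit and, like *Ostc*, is used by nearly every cell. RNA was not measured in these libraries, so the values below say nothing about expression of the 3 genes.

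In the GENCODE M21 annotation, *Etnppl* (ENSMUSG00000019232.14) lies on the plus strand at chr3:130617448-130637521. *Ostc* (ENSMUSG00000041084.8) lies on the minus strand at chr3:130695912-130709444, and *Rpl34* (ENSMUSG00000062006.12) on the minus strand at chr3:130726831-130730398. Both of these genes therefore begin at their telomeric end, the end that faces *Lef1*. The fragments were divided into 24 in *Etnppl*, 14 in *Ostc*, 3 in *Rpl34*, 17 in the gap between *Col25a1* and *Etnppl*, 47 in the gap between *Etnppl* and *Ostc*, and 19 in the gap between *Ostc* and *Rpl34*. They lay 378 to 509 kb from the promoter viewpoint and 289 to 420 kb from the Leaf viewpoint. The *Etnppl* and *Ostc* start sites fell in no scored fragment, although the nearest fragment began 8 bp upstream of *Ostc*. The *Rpl34* start site fell within a scored fragment.

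The sequences below, from the RefSeq GRCm38 reference, are those of the fragments on which the results turn. Capitals mark the sites of the 2 enzymes that define a fragment, CATG for NlaIII and GATC for DpnII. The first pair are the ends of chr3:130713120-130714039, between *Ostc* and *Rpl34*, the fragment with the highest score of the stretch from the promoter in either tissue. The right end is written on the minus strand and every left end on the plus strand, each read inwards from its NlaIII site.
gap fragment, left end: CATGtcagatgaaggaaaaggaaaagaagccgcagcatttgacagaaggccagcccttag
gap fragment, right end: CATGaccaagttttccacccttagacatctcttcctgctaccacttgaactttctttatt

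The next is chr3:130726046-130726229 with its flanking sites, printed whole on the plus strand. It is intergenic, just beyond the end of *Rpl34*, and had the highest score from Leaf in whisker pad.
fragment beside Rpl34: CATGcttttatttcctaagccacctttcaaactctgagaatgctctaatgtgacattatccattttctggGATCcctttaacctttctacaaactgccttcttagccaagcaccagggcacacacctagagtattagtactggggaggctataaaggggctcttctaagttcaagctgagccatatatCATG

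The fragment chr3:130705988-130706231 lies within *Ostc*, across the edge of a coding exon, and is also printed whole on the plus strand. It carried the second highest score from Leaf in whisker pad, and it is shown because its last 36 bases occur at 3437 places in the genome, while its first 36 occur at 1.
fragment in Ostc: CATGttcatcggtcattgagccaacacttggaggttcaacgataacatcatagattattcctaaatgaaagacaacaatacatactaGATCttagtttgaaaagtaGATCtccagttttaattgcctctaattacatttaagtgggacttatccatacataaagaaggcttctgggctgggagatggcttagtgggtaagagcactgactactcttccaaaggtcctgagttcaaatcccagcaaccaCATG

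The ends of chr3:130727333-130727925, within *Rpl34*, belong to the fragment with the highest score of the stretch from Leaf in kidney.
fragment in Rpl34, left end: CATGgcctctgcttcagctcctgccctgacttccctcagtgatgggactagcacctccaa
fragment in Rpl34, right end: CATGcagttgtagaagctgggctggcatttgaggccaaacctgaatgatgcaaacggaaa

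The last is the RefSeq promoter entry of *Rpl34*, the 250 bases that precede its start site (chr3:130730399-130730648, minus strand). The fragment that holds this start site ends at the NlaIII site in capitals, and it had a score in all 4 libraries.
Rpl34 upstream: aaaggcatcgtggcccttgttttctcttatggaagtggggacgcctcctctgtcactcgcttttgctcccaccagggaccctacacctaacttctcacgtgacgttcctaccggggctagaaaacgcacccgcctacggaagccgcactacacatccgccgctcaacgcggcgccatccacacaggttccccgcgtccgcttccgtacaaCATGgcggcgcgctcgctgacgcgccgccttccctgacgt

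All 124 fragments had NlaIII sites at both ends and at least 1 DpnII site between them. For 120 of the 124, the 36 bases at each end occurred at 1 place in the genome, including all 3 fragments of *Rpl34* and all 19 between *Ostc* and *Rpl34*. Scores were divided by their mean over the chromosome 3 fragments within 1 Mb of the viewpoint, so that a normalized score of 1 is the average of that neighbourhood. The divisor from the promoter was 101 in the whisker pad library and 21.3 in the kidney library, and from Leaf it was 65.0 and 16.5. Fewer fragments had any score in kidney: within 1 Mb of the promoter viewpoint the whisker pad library scored 59.5% of fragments and the kidney library 29.1%, and within 1 Mb of the Leaf viewpoint they scored 37.1% and 14.0%. The part of this difference in the tissue comparisons was not tested. Scores were not whole read counts, so read depth is unknown and the Wilson intervals below count fragments only, with neighbouring fragments not independent.

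From the *Lef1* promoter in whisker pad, contacts were unevenly spread over the stretch, being low across *Etnppl* and most of *Ostc* and high from the start of *Ostc* through *Rpl34*. The mean normalized score was 0.198 in the gap before *Etnppl*, 0.180 in *Etnppl* and 0.339 in the gap between *Etnppl* and *Ostc*. It was 0.416 in *Ostc*, 3.24 between *Ostc* and *Rpl34* and 4.34 in *Rpl34*. The 22 fragments telomeric to the *Ostc* start site made up 17.7% of the stretch and held 71.7% of its score. They contained the 10 highest fragments of the stretch and 19 of the highest 20. This dividing line was not set in advance and lies close to where these same scores rise most. Values given here and below for either side of it are therefore a description of that rise and no test of it.

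**Figure D1:**
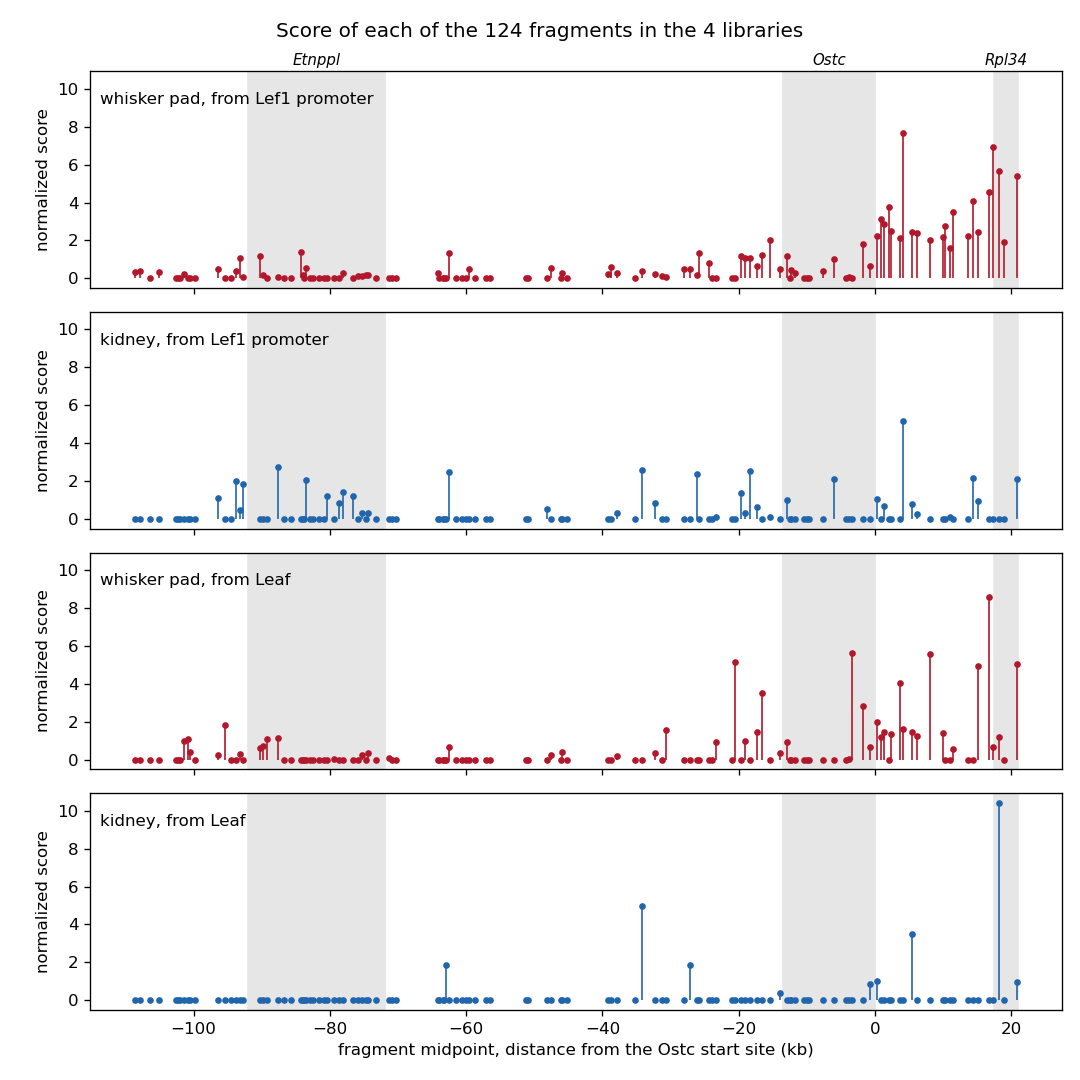
Normalized score of each of the 124 fragments (vertical axis) against the distance of its midpoint from the *Ostc* start site in kb (horizontal axis; positive towards *Lef1*), with 1 panel per library and the 3 genes shaded. In whisker pad from the promoter, every fragment telomeric to the *Ostc* start site lies at 1.61 or above, while in the kidney panels many fragments there are at 0.

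In kidney from the same viewpoint, no such contrast was seen, and the gene and gap means lay closer together. They were 0.321 before *Etnppl*, 0.422 in *Etnppl* and 0.304 between *Etnppl* and *Ostc*. They were 0.223 in *Ostc*, 0.589 between *Ostc* and *Rpl34* and 0.701 in *Rpl34*. The telomeric 22 fragments held 28.7% of the kidney score and 3 of its 10 highest fragments. The kidney means beyond *Ostc* rested on few fragments: without the highest fragment, the mean between *Ostc* and *Rpl34* was 0.336, and in *Rpl34* the only fragment above 0 was the one at the start site.

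Among the genes, *Etnppl* had the lowest mean of the 3 from the promoter in whisker pad. Of its 24 fragments, 13 were above 0 (54.2%, 95% Wilson interval 35.1% to 72.1%), with a median of 0.00276 and a highest score of 1.40. In kidney 9 were above 0 (37.5%, 21.2% to 57.3%), with a median of 0 and a highest of 2.75. Whisker pad had the higher score at 8 fragments and kidney at 9, so the direction of the means, a log2 ratio of whisker pad to kidney of -1.18, was not shared by most fragments. Taking the mean of the whole chromosome as the divisor gave -0.49, and taking the median of the scores above 0 gave -0.14.

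*Ostc* was heterogeneous along its length. In whisker pad from the promoter, 9 of its 14 fragments were above 0, from a lowest score of 0 through a median of 0.191 to a highest of 1.80. In kidney 3 were above 0, and the highest was 2.13. Whisker pad was the higher tissue at 8 fragments and kidney at 1, with a log2 ratio of 0.87. The highest whisker pad fragment of the gene, 1.80, was the penultimate one before the start site, and the last one had 0.645. The corresponding kidney scores were 0.000469 and 0.

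The gap between *Ostc* and *Rpl34*, which holds no annotated gene, had a score at every fragment in whisker pad from that viewpoint. From the promoter, 19 of 19 fragments were above 0 (lower 95% Wilson limit 83.2%), from a lowest score of 1.61 through a median of 2.49 to a highest of 7.68. In kidney 8 of 19 were above 0 (42.1%, 23.1% to 63.7%), with a median of 0 and a highest of 5.15. Every one of the 19 fragments scored higher in whisker pad, although the ranges of the 2 tissues overlapped. The log2 ratio of the means was 2.44. The highest fragment was the same in both tissues, the first one printed above, with 7.68 in whisker pad and 5.15 in kidney.

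*Rpl34* was covered by 3 fragments. From the promoter, its scores in whisker pad were 5.68, 1.92 and 5.41 from the centromeric to the telomeric fragment, and those in kidney were 0, 0 and 2.10. All 3 were higher in whisker pad, and the groups overlapped, since the whisker pad score of 1.92 lay below the kidney score of 2.10. The log2 ratio of the means was 2.61. A fragment straddling the end of the gene, with its midpoint in the gap, had 6.91 in whisker pad and was at 0 in kidney. When fragments were assigned by overlap of at least 1 base, so that it was counted in *Rpl34*, the log2 ratio was 3.22.

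**Figure D2:**
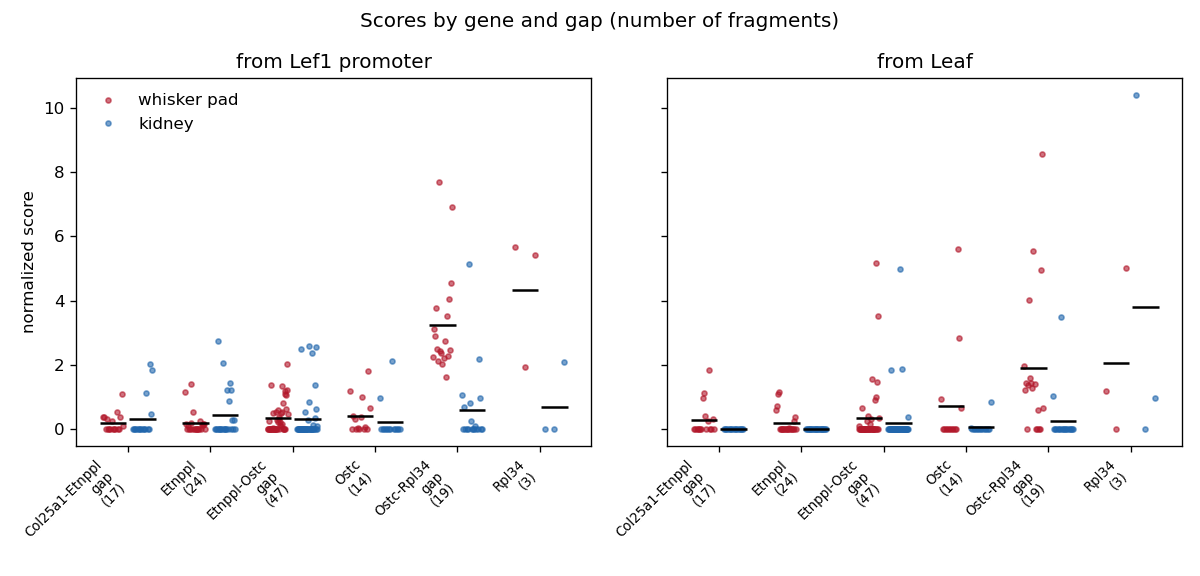
Normalized scores (vertical axis) of single fragments, grouped by gene and gap in chromosomal order, in whisker pad (red) and kidney (blue) from the *Lef1* promoter (left) and Leaf (right). Black bars are means and numbers in parentheses count fragments. From the promoter, the whisker pad scores of the last gap and of *Rpl34* lie at 1.61 or above, and from Leaf the kidney mean of *Rpl34* is set by 1 fragment at 10.4.

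The position at which contacts rose most towards *Lef1* was located from the 11 fragments before and the 11 after each fragment boundary. The step at a boundary is the log2 ratio of the mean after it to the mean before it, with 0.1 added to both. Steps were ranked from the largest rise down, so the largest step is the largest rise, and falls were not sought. From the promoter in whisker pad, the largest step of 1051 boundaries centromeric to the viewpoint lay within *Ostc*, 2608 bp inside its start site. There the mean went from 0.201 to 2.87, a log2 step of 3.31, and the number of fragments above 0 from 6 of 11 to 11 of 11. At the start site itself it went from 0.386 to 3.03, which ranked 3 of 1051. Windows at neighbouring boundaries overlap, so these ranks describe 1 place rather than several. The largest step stayed within 2799 bp of the start site with windows of 7, 15 or 21 fragments, with 0.01 or 1 added, and with fragments of 100 bp or longer or with unique ends. With windows of 5 fragments it lay elsewhere, 530193 bp farther centromeric.

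In kidney from the promoter, the step at the *Ostc* start site was smaller, from 0.194 to 0.726, and ranked 134 of 1051. The largest kidney step within the stretch lay 98058 bp centromeric to the *Ostc* start site, in the gap before *Etnppl*, from 0 to 0.746, and ranked 4. The largest of all 1051 lay 263745 bp telomeric to that site, from 0.0352 to 2.13. At *Rpl34* the kidney mean went from 0.316 to 1.81 at the end of the gene, which ranked 50, and from 0.483 to 2.33 at its start site, which ranked 61. Whisker pad showed the opposite order at that start site, with 3.74 before and 1.70 after it. In the 10 kb bin that begins 20 kb telomeric to the *Ostc* start site, and holds the *Rpl34* start, the 14 fragments averaged 2.02 in whisker pad and 1.98 in kidney. In the 2 bins before it they were 3.12 against 0.798 over 10 fragments and 3.45 against 0.292 over 11. Of these bins, the tissues therefore differed least in the one that begins at 20 kb, most of which lies telomeric to *Rpl34*. Only its first fragment, the one that holds the *Rpl34* start site, belongs to the gene, and it had 5.41 in whisker pad and 2.10 in kidney.

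**Figure D3:**
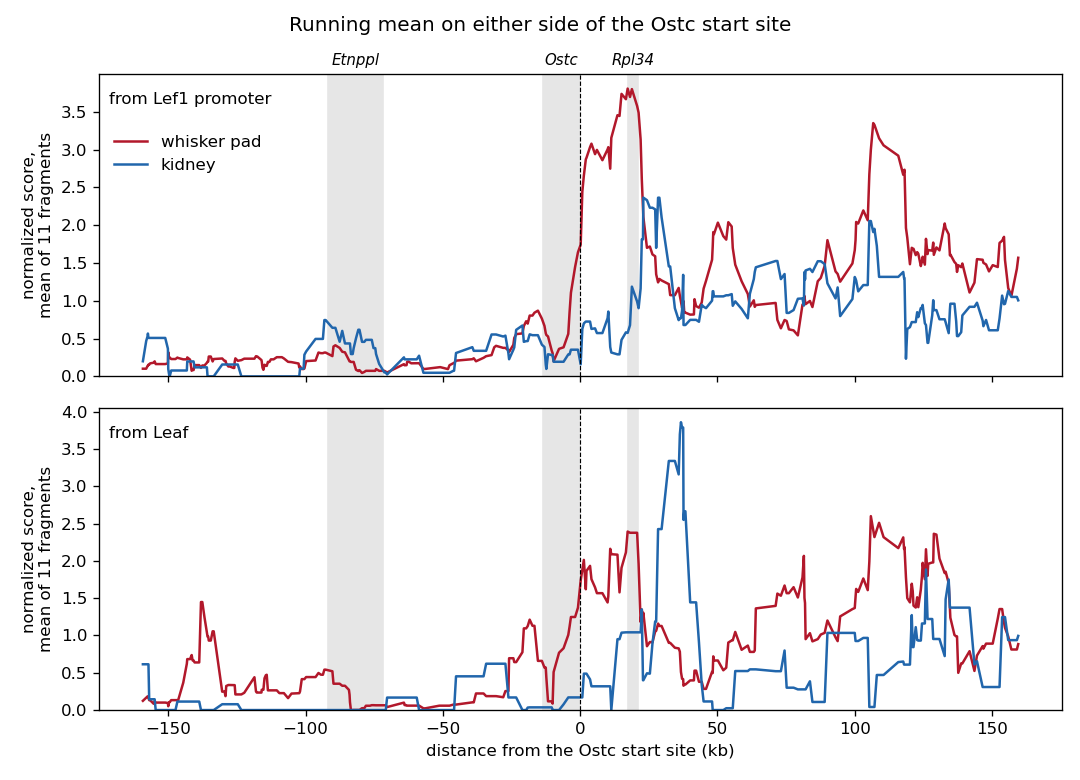
Running mean of the normalized score over 11 fragments (vertical axis) against the distance from the *Ostc* start site in kb (horizontal axis; dashed line at the start site), for whisker pad (red) and kidney (blue) from the *Lef1* promoter (top) and Leaf (bottom), with the 3 genes shaded. From the promoter the whisker pad curve steps up at the start of *Ostc*, and the kidney curve has several steps, among them one about 20 kb farther, at *Rpl34*.

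From Leaf, the whisker pad means were 0.286 before *Etnppl*, 0.176 in *Etnppl* and 0.337 between *Etnppl* and *Ostc*. They were 0.719 in *Ostc*, 1.90 between *Ostc* and *Rpl34* and 2.07 in *Rpl34*. From lowest to highest, the genes and gaps stood in the same order as from the promoter, but this order rested on a fragment with a repeated end, described below: without such fragments the gap between *Etnppl* and *Ostc* had 0.242, less than the gap before *Etnppl*. The 22 fragments telomeric to the *Ostc* start site held 54.7% of the score of the stretch and 6 of its 10 highest fragments. Of the 19 fragments between *Ostc* and *Rpl34*, 14 were above 0 (73.7%, 95% Wilson interval 51.2% to 88.2%), with a median of 1.37 and a highest of 8.58, the fragment beside *Rpl34* printed above. That fragment had 4.55 from the promoter in whisker pad and was at 0 in both kidney libraries.

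The largest step from Leaf in whisker pad, of 1046 boundaries, also lay in *Ostc*, 3526 bp inside its start site, where the mean went from 0.087 to 2.01. The low mean before it was local: at the end of *Ostc* the mean had fallen from 1.13 to 0.087, which ranked 1044. The windows with 1.13 and 2.01 each hold a fragment with a repeated end, described below. This position was less stable than that from the promoter. It was the same with 1 added in place of 0.1 and with fragments of 100 bp or longer, and 2799 bp inside the start site with unique ends. It lay elsewhere, between 31052 and 635254 bp from the start site, with windows of 5, 7, 15 or 21 fragments and with 0.01 added. At the start site itself the step was from 0.829 to 1.93 and ranked 152 of 1046.

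Seen from Leaf, *Ostc* owed much of its whisker pad mean to the fragment with a repeated end. This fragment scored 5.60 there and 0 in the other 3 libraries, and without it the mean of *Ostc* was 0.344. In the gap between *Etnppl* and *Ostc*, chr3:130688889-130689000 behaved alike, with 5.17 from Leaf in whisker pad, 0 in the other 3 libraries and an end that occurs at 304 places. In whisker pad, 7 fragments of the stretch were above 0 from Leaf and at 0 from the promoter, and these were the highest 2 of the 7. The part of repeated ends in their scores was not tested. The other fragments of *Ostc* with a score from Leaf in whisker pad had 0.949, 0.00815, 2.85 and 0.663.

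In kidney from Leaf the stretch was sparsely covered, with 11 of 124 fragments above 0 (8.87%, 95% Wilson interval 5.03% to 15.2%) against 48 in whisker pad (38.7%, 30.6% to 47.5%). No fragment of the 17 before *Etnppl* was above 0 (0%, with an upper limit of 18.4%), so no ratio is given for that gap. In *Etnppl* 1 of 24 was above 0, with a score of 0.0151, in *Ostc* 2 of 14, and between *Ostc* and *Rpl34* 2 of 19. The highest 3 fragments held 73.2% of the kidney score of the stretch, compared with 19.5% to 25.6% in the other libraries. Means of so few fragments depend on each of them.

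*Rpl34* was the exception to the higher whisker pad means from Leaf. Its scores were 1.19, 0.000308 and 5.02 in whisker pad and 10.4, 0 and 0.959 in kidney. The means were 2.07 and 3.80, a log2 ratio of -0.87, yet at 2 of the 3 fragments whisker pad was higher. The score of 10.4 belonged to the fragment in *Rpl34* whose ends are printed above, and it alone held most of the kidney mean. Without the highest fragment of each library in the stretch the log2 ratio was 2.09, and with the median of the scores above 0 as divisor it was 0.61. The direction at *Rpl34* from Leaf thus rested on 1 fragment.

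**Figure D4:**
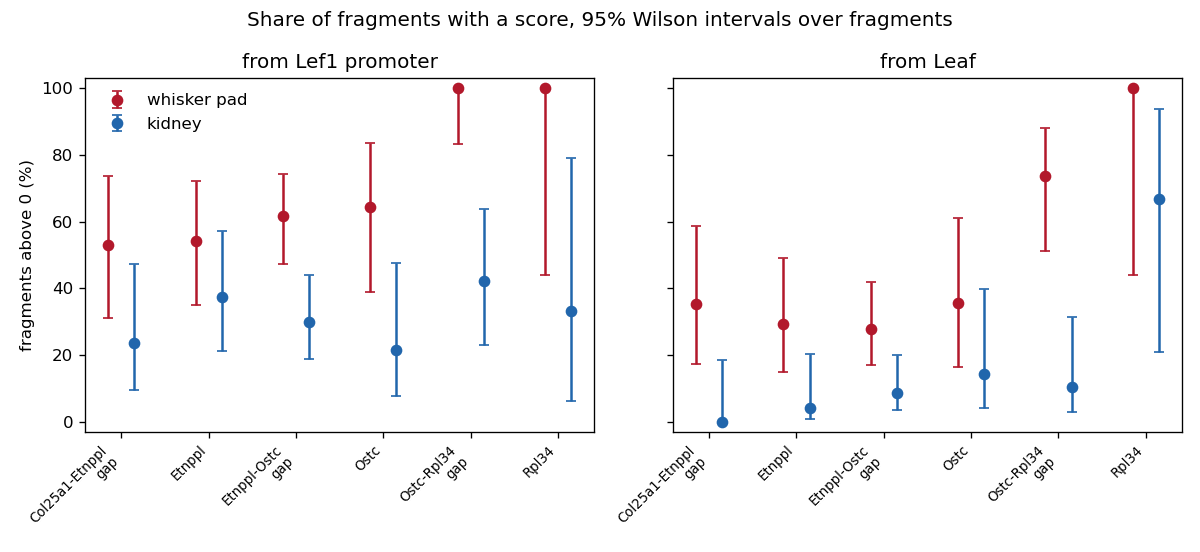
Share of fragments with a score above 0 in percent (vertical axis) by gene and gap, in whisker pad (red) and kidney (blue) from the *Lef1* promoter (left) and Leaf (right), with 95% Wilson intervals over fragments. The whisker pad point lies above the kidney point in every gene and gap, as it does over all fragments within 1 Mb. Those shares were 59.5% and 29.1% from the promoter and 37.1% and 14.0% from Leaf. The intervals are apart for the gap between *Ostc* and *Rpl34* from both viewpoints. They are also apart for the gap between *Etnppl* and *Ostc* from the promoter, but its shares, 61.7% and 29.8%, were close to those within 1 Mb.

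Genes and gaps did not differ in a common direction. From the promoter in whisker pad, the 41 fragments in the 3 genes had a mean of 0.565 and the 83 in the gaps 0.974, a log2 ratio of genes to gaps of -0.77. In kidney the means were 0.374 and 0.373, a ratio of 0.01. From Leaf the means were 0.500 and 0.683 in whisker pad, a ratio of -0.44, and 0.300 and 0.163 in kidney, a ratio of 0.84. The kidney ratio turned to -1.62 without the highest fragment of the stretch, which lies in *Rpl34*. In each whisker pad library, the gene and the gap with the highest means were neighbours, *Rpl34* and the gap beside it, and so were those with the lowest, *Etnppl* and the gap before it. From Leaf, the lowest gap was instead the one between *Etnppl* and *Ostc* without fragments with a repeated end, at 0.242 against 0.286.

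Over the whole stretch, the mean from the promoter was 0.838 in whisker pad and 0.373 in kidney, a log2 ratio of 1.15, and from Leaf it was 0.623 and 0.209, a ratio of 1.53. From the promoter the ratio was larger beyond the *Ostc* start site, a dividing line not set in advance, than before it. Telomeric to the site the means were 3.39 and 0.605, a log2 ratio of 2.47, and centromeric to it they were 0.289 and 0.323 over 102 fragments, a ratio of -0.16, although whisker pad was higher at 44 of these fragments and kidney at 23. From Leaf the ratio was 1.39 telomeric and 1.72 centromeric to the start site. Without the highest fragment of each side, the telomeric means from Leaf went from 1.92 to 1.60 in whisker pad and from 0.724 to 0.261 in kidney. The centromeric means went from 0.343 to 0.291 and from 0.0974 to 0.0491. The order of the Leaf ratios is therefore not settled. Another divisor adds a constant to the log2 ratios of a viewpoint before the pseudocount of 0.01 is applied. With the mean of all of chromosome 3 this constant was 0.74 from the promoter and 0.72 from Leaf, and with the median of the scores above 0 it was 1.08 and 1.49. The pseudocount altered the shift where a mean was near 0, as in *Etnppl* in kidney from Leaf. With these divisors, centromeric to the *Ostc* start site the ratio from the promoter was 0.58 and 0.88, and telomeric to it 3.22 and 3.53. The gap before *Etnppl*, at -0.67, was at 0.04 and 0.37. The direction in both the centromeric part and this gap is therefore not settled.

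Single fragments were also counted as different when the normalized scores, with 0.1 added, differed at least 2-fold. From the promoter, 51 of the 124 fragments (41.1%) were higher in whisker pad by this rule, against 34.0% of the 2007 fragments within 1 Mb, and 15 (12.1%) were higher in kidney, against 11.1%. The counts of the stretch as a whole were thus close to the background, but they were unevenly placed about the *Ostc* start site, a dividing line not set in advance. Of the 22 fragments telomeric to the *Ostc* start site, 20 were higher in whisker pad and 0 in kidney. Of the 102 centromeric ones, 31 (30.4%) were higher in whisker pad and 15 in kidney. From Leaf, 39 of the 124 (31.5%) were higher in whisker pad against 27.2% of 1992 fragments, and 5 (4.03%) were higher in kidney against 6.98%. Telomeric to the *Ostc* start site, 13 of 22 (59.1%) were higher in whisker pad and 2 (9.09%) in kidney from Leaf. The next DNA on that side had similar shares from Leaf: of 93 fragments in the first 100 kb after *Rpl34*, 48.4% were higher in whisker pad and 11.8% in kidney.

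The stretch was next set beside its flanks. *Col25a1*, the collagen gene on its centromeric side, is spanned by 516 fragments, whose whisker pad and kidney means were 0.165 and 0.158 from the promoter and 0.193 and 0.210 from Leaf. In whisker pad from the promoter, *Etnppl* (0.180) and the gap before it (0.198) were near the level of *Col25a1*. The 312 fragments from *Rpl34* to the Leaf viewpoint had means from the promoter of 1.79 and 1.13 in the same tissues, with 96.8% and 51.3% of them above 0. Within the first 100 kb after *Rpl34*, the means were 1.54 and 1.24 over 93 fragments, a log2 ratio of 0.30, and 52.7% were higher in whisker pad by the 2-fold rule. The gap between *Ostc* and *Rpl34* had 3.24 against 0.589, with 17 of 19 fragments higher in whisker pad. By its mean it therefore exceeded these 93 fragments in whisker pad, while in kidney it lay below them. Its whisker pad level was nevertheless not particular to the gap. Among the 93 fragments, the whisker pad running mean from the promoter was 3.35 at 106.8 kb telomeric to the *Ostc* start site. Their highest single score was 10.4, against 7.68 in the gap. On the telomeric side of the promoter, the whisker pad and kidney means of the 121 fragments at the same distances as the stretch were 0.291 and 0.145.

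The 3 genes were ranked with the other protein-coding genes within 1 Mb of the promoter that had at least 4 fragments, 9 in all with *Rpl34*. *Rpl34*, with 3 fragments, was exempt from this minimum as a gene of the stretch, while any other gene with so few was left out. By mean normalized score from the promoter, *Rpl34* ranked 2 in whisker pad, between *Lef1* (5.07) and *Hadh* (1.36), and 3 in kidney, after *Lef1* (6.57) and *Hadh* (0.995). From Leaf it ranked 1 in both tissues, ahead of *Lef1* with 1.85 and 1.43. *Ostc* ranked 5 and 6 from the promoter and 4 and 7 from Leaf in whisker pad and kidney, and *Etnppl* 8 and 4, then 7 and 8. When scores were corrected for distance, by dividing each by a fitted line of slope -1 on log-log axes, *Rpl34* ranked 1 of 9 in all 4 libraries, with 12.9 in whisker pad and 1.36 in kidney from the promoter and 2.81 and 3.47 from Leaf. Its ranks rest on 3 fragments. Without the highest of them in each library, a choice made after seeing the data, its distance-corrected mean still ranked 1 from the promoter in whisker pad, at 10.8, but 9 from the promoter in kidney, where it was at 0, and 4 from Leaf in each tissue, with 0.816 for whisker pad and 0.434 for kidney. With all 3 fragments, in kidney from the promoter the distance-corrected mean of *Etnppl*, at rank 2, was 1.04.

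The viewpoints were compared within each tissue on these distance-corrected scores. In whisker pad the stretch had a mean of 0.933 from Leaf and 2.64 from the promoter, a log2 ratio of -1.49, and in kidney 0.205 and 0.835, a ratio of -1.97. Scores from Leaf were also lower in other DNA: in whisker pad and kidney the ratio was -1.63 and -1.56 in the first 100 kb after *Rpl34*. In *Col25a1* as a whole it was -0.80 and -0.56. In the last 100 kb of *Col25a1*, next to the stretch, Leaf was instead higher, with ratios of 0.40 and 0.46. Over all fragments within 1 Mb the means were 0.732 from Leaf and 1.37 from the promoter in whisker pad, and 0.533 and 0.730 in kidney. The lower level from Leaf was therefore also seen outside the stretch, but not in the DNA directly centromeric to it. The line was fitted to fragments above 0, whereas these means include fragments at 0, which lower them. Within 1 Mb fewer fragments had a score from Leaf (37.1% in whisker pad, 14.0% in kidney) than from the promoter (59.5% and 29.1%). The part of this in the lower level from Leaf was not tested. Within the stretch, the 3 fragments of *Rpl34* in kidney went the other way, with 3.47 from Leaf and 1.36 from the promoter, a ratio of 1.35. Without distance correction the ratios of the stretch were -0.42 and -0.81. In whisker pad the gap between *Ostc* and *Rpl34* had 2.67 from Leaf and 9.86 from the promoter, and *Ostc* 1.05 and 1.32. Without the fragment with a repeated end, a choice made after seeing the data, *Ostc* had 0.505 and 1.42, a log2 ratio of -1.47 in place of -0.32. Of the 48 whisker pad fragments above 0 from Leaf, 41 were also above 0 from the promoter. Across the 124 fragments, Spearman's rho between the whisker pad libraries was 0.43, and between the kidney libraries it was 0.22. Over the 102 fragments centromeric to the *Ostc* start site, rho was 0.24 and 0.16. The points of each pair share neighbouring fragments and, within a viewpoint, the same distances, and these correlations are given as a description.

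Only 5 of the 124 fragments had a score in all 4 libraries, and 28, none of them telomeric to the *Ostc* start site, were at 0 in all 4. The 5 were picked out after their values had been seen. How many of the 124 lie as close to a gene end was not counted, so their positions are given as a description. For some of them, a score in all 4 libraries rested on a kidney value near 0, such as 0.00844 or 0.0302. The fragment chr3:130695086-130695958 overlaps the end of *Ostc*, and had 0.470 in whisker pad and 0.00844 in kidney from the promoter and 0.337 and 0.368 from Leaf. The next one, chr3:130696122-130696810, had 1.17 and 0.981, then 0.949 and 0.0302. Just upstream of the *Ostc* start site, chr3:130709452-130709870 had 2.25 and 1.07 from the promoter and 1.96 and 1.02 from Leaf. The fragment that holds the *Rpl34* start site, chr3:130729999-130730434, had 5.41 and 2.10, then 5.02 and 0.959. In both of the last 2 fragments each whisker pad score was higher than the kidney score of the same viewpoint. The remaining one, chr3:130714690-130715094, lies in the gap and had 2.43 and 0.809 from the promoter and 1.44 and 3.50 from Leaf, where kidney was higher.

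In kidney, some single fragments of the low part of the stretch stood out. The fragment chr3:130620947-130622736 in *Etnppl* had 2.75 from the promoter in kidney, against 0.0856 in whisker pad, but from Leaf it was at 0 in kidney and at 1.16 in whisker pad. Between *Etnppl* and *Ostc*, chr3:130674839-130675580 had 2.58 from the promoter and 4.97 from Leaf in kidney, against 0.380 and 0 in whisker pad. It was the only one of the highest 3 fragments of the kidney promoter library that was also among the highest 3 of the kidney Leaf library.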

How the data were processed

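4C-Seq was analysed in 4 libraries, 1 per tissue and viewpoint. The authors cut chromatin with NlaIII and DpnII, aligned reads to mm10 (Bowtie2, per the submitters' processing notes) with the HTSstation pipeline and left out the fragments next to each viewpoint. The deposited values are signals per fragment, raw and smoothed, of which the raw ones were used. The scaling behind the raw score is not given in the sources used here.

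Raw scores were divided by their mean over chromosome 3 fragments within 1 Mb of the viewpoint, as in the methods. Distance correction used a line of slope -1 fitted per library to fragments above 0. Log2 ratios of means used a pseudocount of 0.01. A fragment was assigned by its midpoint. Named fragments were the highest 3 of each library and those holding a start site. Members and lists were chosen with earlier results of these data known. Alternatives changed scaling, distance correction, fragments, assignment, smoothing, pseudocount and threshold. Scripts ran in Python 3.11.15 with pandas 2.3.3, numpy 2.4.6, scipy 1.17.1 and, for figures, matplotlib 3.10.9.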

Additional observations from a re-analysis of the deposited data

Results flagged for a closer look

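For 2 genes the whisker pad and kidney means differed in opposite directions from the 2 viewpoints, and this difference between viewpoints was not tested, as each rests on 1 library per tissue. In *Etnppl* the log2 ratio of whisker pad to kidney was -1.18 from the *Lef1* promoter and 4.13 from Leaf, where 1 of 24 kidney fragments was above 0, with a score of 0.0151. The kidney mean from Leaf, 0.00063, lies below the pseudocount of 0.01, so that the size of the Leaf ratio is set by the pseudocount: it was 1.46 with 0.1 added and 8.10 when scaled to all of chromosome 3. The promoter ratio was -0.14 with the median of the scores above 0 as divisor. In *Rpl34* it was 2.61 from the promoter and -0.87 from Leaf, where 1 of its 3 fragments had 10.4 in kidney, and without the highest fragment of each library the Leaf ratio was 2.09.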

How the results depend on the processing

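Of 242 alternative values of 27 results, 194 moved by less than 1.5 times or stayed in their interval and 48 moved by more. No mean difference of at least 2-fold turned its sign, whereas smaller ones did before *Etnppl* from the promoter, in *Rpl34* from Leaf and for genes over gaps in kidney, from Leaf and from the promoter, where 0.01 became -0.07 with fragments of 100 bp or longer, -0.08 with assignment by overlap and -0.01 with unique ends. The cause was not tested beyond what each alternative's construction shows. Scaling to all of chromosome 3 gave log2 ratios of whisker pad to kidney from the promoter of 1.91 for the stretch, 0.04 before *Etnppl*, -0.49 in *Etnppl*, 0.90 between *Etnppl* and *Ostc*, 1.64 in *Ostc*, 3.19 between *Ostc* and *Rpl34* and 3.37 in *Rpl34*. From Leaf it gave 2.29 for the stretch, 8.10 in *Etnppl*, 1.52 between *Etnppl* and *Ostc*, 4.23 in *Ostc*, 3.71 between *Ostc* and *Rpl34* and -0.16 in *Rpl34*. Scaling to the median of fragments above 0 gave 2.20, 0.37, -0.14, 1.20, 1.91, 3.50 and 3.68 from the promoter, in the same order. From Leaf it gave 2.84 for the stretch, 2.08 between *Etnppl* and *Ostc*, 4.33 in *Ostc*, 4.27 beside it and 0.61 in *Rpl34*. Distance correction gave -0.08 before *Etnppl*, 0.74 between *Etnppl* and *Ostc*, 1.48 in *Ostc*, 3.04 between *Ostc* and *Rpl34* and 3.23 in *Rpl34* from the promoter, and 2.13 for the stretch and 4.97 in *Etnppl* from Leaf. Without it, the ratio of Leaf to the promoter was -0.42 in whisker pad and -0.81 in kidney. Leaving out the highest fragment of each library gave 3.12 between *Ostc* and *Rpl34* from the promoter, 2.09 in *Rpl34* from Leaf, and -1.62 for genes over gaps in kidney from Leaf. A running mean over 11 fragments gave -1.02 for this last ratio, 1.94 in *Rpl34* from the promoter, and 1.86 between *Ostc* and *Rpl34* and 1.18 in *Rpl34* from Leaf. Assignment by overlap gave 3.22 in *Rpl34* from the promoter. A pseudocount of 0.1 on means gave 1.46 in *Etnppl* and 2.33 in *Ostc* from Leaf, and fragments with unique ends, chosen after seeing the data, gave 2.20 in *Ostc* from Leaf. With 1 added to fragment scores, 23 fragments from the promoter and 21 from Leaf were 2-fold higher in whisker pad and 8 from the promoter higher in kidney. No paired analysis was possible because there is 1 library per tissue and viewpoint.

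The unknown read depth and the many kidney fragments at 0 limit every kidney mean of a single gene. From Leaf, the ratio of *Etnppl* ranged from 1.46 to 8.10 over the alternatives and that of *Rpl34* from -0.89 to 2.09.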
